A study of Mus musculus with 20 samples.

Results

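The 38 genes examined here mark macrophages, monocytes and dendritic cells, the mononuclear phagocytes of the colon wall. They were taken from a list of symbols, and all 38 had values among 32991 genes in total. By role, 14 are genes of resident macrophages, 6 of recruited monocytes, 8 of lipid handling, scavenging and arginine use, 9 of dendritic cells, and 1, Csf1, is a growth factor. The study asked how the Chinese formula Pien Tze Huang (PZH) affects colitis-associated cancer in male C57BL/6 mice, and RNA of the colon was sequenced from 20 mice, 5 per group, each mouse giving 1 library. Control mice received double distilled water by gavage for 91 days, and PZH mice received 250 mg/kg PZH per day instead. Model mice received the same water as Control mice, 1 intraperitoneal injection of 12.5 mg/kg azoxymethane (AOM, a carcinogen that gives colon tumors) and 2% dextran sodium sulfate (DSS, which injures the colon epithelium) in the drinking water for 5 days per cycle. Model + PZH mice received AOM, DSS and 250 mg/kg PZH per day. Values are FPKM (fragments scaled by transcript length and by the mapped total of the library), summed over the annotated transcripts of a gene. Lists of values follow the mouse numbers, 17, 37, 41, 48 and 50 for Control, 8, 14, 27, 46 and 53 for PZH, 23, 30, 33, 44 and 52 for Model and 2, 13, 15, 35 and 36 for Model + PZH.

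Blood monocytes enter the colon throughout life and turn there into resident macrophages, which take up dead cells and debris, carry receptors such as F4/80 (Adgre1), the CSF1 receptor (Csf1r), CD163 and MRC1, and make complement C1q. In injured or inflamed colon, monocytes with high Ly6c2 and Ccr2 arrive in number and keep their own set of receptors. Macrophages that meet lipid and dying cells switch on Trem2, Gpnmb and Apoe, and arginase (Arg1) takes arginine to ornithine and urea. Dendritic cells carry antigen to T cells; the cDC1 type is marked by Xcr1, Clec9a and Batf3, and Itgax (CD11c) is shared with macrophages. In bulk tissue, fewer cells of a type and less of an RNA per cell cannot be told apart.

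The depth read from the smallest step of the values was 15.3 to 19.4 M fragments per mouse, with overlapping ranges in the 4 groups. The tissue label was colon, while the label on RNA extraction named the abdominal aorta. The summed level of 10 colon epithelium genes was 1517 to 6619 FPKM over all mice, though 1 of the 10 was listed at 0 in every Control mouse. Of the cell type lists, all 6 smooth muscle genes were lower in Model than in Control mice by adjusted p (summed level 996 to 1734 against 2244 to 5172 FPKM), 5 of 6 tested neutrophil genes were higher (8 genes summed, 239 to 665 against 81.0 to 399 FPKM) and 4 of 6 T cell genes were higher. By the same measure, 4 of 5 mast cell genes, 2 of 2 tested eosinophil genes and 2 of 6 B and plasma cell genes were higher. Of 9 tested colon epithelium genes, 4 were lower. Fibroblast genes had 2 of 6 higher and 1 lower, and endothelium genes 2 of 5 higher. Control mice 17 and 50 stood apart in 5 keratins of squamous epithelium, a lining that colon mucosa lacks (Krt13 125, 0.372, 0.256, 0.527 and 126 FPKM in Control mice). These keratins were chosen after their values were seen. Model + PZH mouse 35 lay near Model mice in many genes below, and comparisons that rest on these 3 mice are given with and without them. The part of the cell type lists and of these mice in the results was not tested, except where a value without them is given.

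The levels spanned a wide range. In Control mice the highest medians were those of Cst3 (cystatin C, a protease inhibitor abundant in phagocytes and other cells) at 226 FPKM, Lyz2 (lysozyme) at 181 FPKM and C1qa at 62.1 FPKM. At the low end, Timd4, Vsig4, Marco, Xcr1 and Clec9a did not reach the level needed for the test in Model and Control mice, which was 0.5 FPKM in at least 5 of the 10 mice compared. Marco was listed at 0 in 10 of 20 mice, and Xcr1 was 0.0661 to 0.423 FPKM over all mice. Differences were tested as log2(FPKM + 1) with limma over all genes with Benjamini-Hochberg adjustment, and called at an adjusted p under 0.05. Since 1 is added to each FPKM, the fold of low genes is understated.

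Of 33 genes tested in Model against Control mice, 12 were higher and 2 lower, beside 16.4% of all 15812 genes tested that were higher and 7.23% that were lower. The median log2 difference of the 33 was 0.31, and that of all genes tested was 0.09. In 8 members every Model mouse was above every Control mouse and in 2 every Model mouse was below, beside 13% and 5.43% of all genes. With the values rescaled by the median of ratios, all genes split into 1949 higher and 1605 lower in place of 2596 and 1143, and the members into 9 and 2. Cd163 passed the level filter through Control mice only, so it could only come out lower. Without Control mice 17 and 50, 10 of 32 members were higher and 1 lower, beside 1881 higher and 858 lower of all 15381 genes tested.

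The resident macrophage genes split. Folr2 (folate receptor beta) and Cd163 (the haptoglobin-hemoglobin scavenger receptor) were lower in Model mice, Csf1r and C1qb were higher, and the other 8 tested did not pass. Folr2 was 6.08, 5.101, 5.24, 4.33 and 9.197 FPKM in Control mice and 0.716, 2.64, 0.736, 0.439 and 0.924 FPKM in Model mice. The highest Model mouse, 30, lay below the lowest Control mouse, and the log2 difference was -1.79 ± 0.26, adjusted p = 0.0008496 (SE over 5 and 5 mice). Cd163 was 2.03, 0.959, 1.05, 0.663 and 2.27 FPKM in Control mice and 0.159, 0.2496, 0.149, 0.0534 and 0.124 FPKM in Model mice, a log2 difference of -1.01 ± 0.18, adjusted p = 0.00283. All 5 Model mice lay at or below 0.250 FPKM and no Control mouse below 0.663 FPKM. The highest Folr2 and Cd163 values were those of Control mice 17 and 50, which carried the keratins. Without these mice, Folr2 remained lower (-1.57 ± 0.28, adjusted p = 0.00689), and Cd163 no longer met the level filter, although its 3 other Control values stayed above those of all Model mice.

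Csf1r, the receptor through which CSF1 keeps macrophages alive, went the other way, from 13.2, 13.6, 9.76, 10.5 and 12.7 FPKM in Control to 14.8, 19.9, 20.02, 18.8 and 15.7 FPKM in Model mice (0.54 ± 0.13, adjusted p = 0.0131). The groups did not overlap. Per unit of Csf1r, Folr2 was 0.374 to 0.724 in Control and 0.0234 to 0.133 in Model mice, and Cd163 was 0.0630 to 0.178 and 0.00285 to 0.0126. That these ratios did not overlap follows from the separation of each gene and adds no further test. C1qb, a chain of complement C1q, was 58.9, 78.9, 43.5, 47.7 and 61.7 FPKM in Control mice and 68.6, 82.7, 88.6, 77.7 and 80.4 FPKM in Model mice (0.47 ± 0.15, adjusted p = 0.0457), and the groups overlapped through Control mouse 37. C1qb was not called without Control mice 17 and 50 or after rescaling. Of the other 2 chains, C1qa had a log2 difference of 0.46 ± 0.22, adjusted p = 0.159, and C1qc 0.23 ± 0.16, adjusted p = 0.356.

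The general macrophage marker Adgre1 was 5.83 to 8.897 FPKM in Control and 6.55 to 8.59 FPKM in Model mice (0.12 ± 0.13, adjusted p = 0.572). Mrc1 (the mannose receptor) was 5.698 to 11.5 and 5.36 to 8.87 FPKM (-0.23 ± 0.19, adjusted p = 0.433). For Maf, Siglec1, Mertk and Cx3cr1 the log2 differences were -0.04, -0.17, -0.41 and -0.18, none past the threshold. Cx3cr1, the fractalkine receptor, was uneven among Model mice, 5.296, 1.04, 1.61, 1.68 and 5.22 FPKM, against 2.72 to 3.38 FPKM in Control mice. Vsig4, a complement receptor of resident macrophages, was too low for the test, with 0.587, 0.573, 0.215, 0.478 and 1.76 FPKM in Control and 0.0823, 0.227, 0, 0 and 0 FPKM in Model mice, and Timd4, a receptor for dying cells, was 0 to 0.5098 and 0.0273 to 0.398 FPKM.

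**Figure D1:**
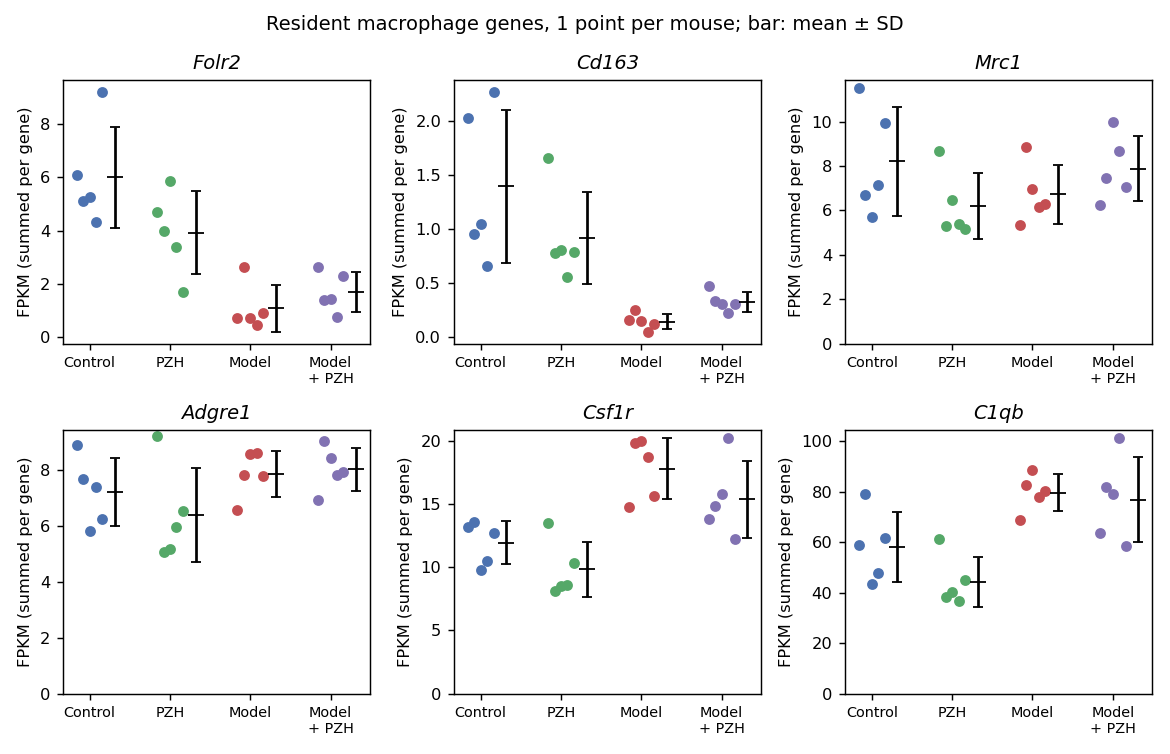
FPKM of 6 resident macrophage genes (y axis of each panel) in each mouse of the 4 groups (x axis), with the mean and SD of 5 mice as bars. Folr2 and Cd163 of all Model mice lie below all Control mice, Csf1r of all Model mice lies above, and Mrc1 and Adgre1 overlap.

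Among the 6 genes listed for recruited monocytes, all had a positive log2 difference and 3 were called. Ccr2 and Ly6c2, named above for arriving monocytes, were not among the 3. Cd14, the co-receptor for bacterial lipopolysaccharide, was 32.7, 43.2, 32.8, 36.6 and 27.2 FPKM in Control and 74.3, 55.5, 56.6, 90.8 and 84.4 FPKM in Model mice (1.03 ± 0.17, adjusted p = 0.00166). Csf2rb, the signaling chain shared by the receptors for GM-CSF, IL-3 and IL-5, was 3.44, 3.91, 2.19, 2.29 and 1.43 FPKM and 6.65, 7.57, 10.5, 4.93 and 5.72 FPKM (1.15 ± 0.23, adjusted p = 0.005196). Neither gene overlapped between the groups. Fcgr1, the high-affinity IgG receptor, was 1.41, 2.17, 1.08, 1.38 and 1.31 FPKM in Control and 3.29, 2.16, 3.39, 3.78 and 3.18 FPKM in Model mice, with Control mouse 37 just above Model mouse 30 (0.75 ± 0.15, adjusted p = 0.00554). Neutrophils also carry Cd14 and Csf2rb. The neutrophil genes were higher in the same mice, and so were genes of mast cells and eosinophils, as stated above.

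The other 3 did not pass. Ccr2, the receptor that draws monocytes out of the blood, was 0.738 to 2.599 FPKM in Control and 1.52 to 2.65 FPKM in Model mice (0.21 ± 0.20, adjusted p = 0.513). Ly6c2 was 7.197 to 16.5 and 11.3 to 28.8 FPKM (0.47 ± 0.30, adjusted p = 0.2997), and Lyz2 was 149 to 323 and 230 to 387 FPKM (0.64 ± 0.22, adjusted p = 0.0633), with overlap in both. Fragments can be shared with near-identical copies of these genes. The lysozyme of Paneth cells, Lyz1, was 21.5, 12.8, 1.66, 2.33 and 10.2 FPKM in Control and 1059, 732, 681, 1510 and 2128 FPKM in Model mice, a log2 difference of 7.14 ± 0.59, adjusted p = 2.32e-05. Lyz1 was at least 681 FPKM in every Model mouse and at most 21.5 FPKM in Control mice. Whether the division of fragments between Lyz1 and Lyz2 moved the Lyz2 value was not tested. Ly6c1, which endothelium expresses, was 88.1, 57.3, 36.3, 25.9 and 36.7 and 136, 60.9, 89.5, 71.3 and 67.98 FPKM (0.86 ± 0.32, adjusted p = 0.0769), and Csf2rb2, the copy of Csf2rb that serves IL-3, was 0.464, 0.783, 0, 0 and 2.03 and 1.95, 1.75, 3.11, 0.539 and 5.59 FPKM (1.08 ± 0.40, adjusted p = 0.0761).

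The genes of lipid handling, scavenging and arginine use were higher in 5 of 7 tested, with a median log2 difference of 0.98. Gpnmb, a lysosomal glycoprotein of lipid-laden macrophages, was 3.16, 2.04, 1.49, 1.76 and 2.78 FPKM in Control and 3.67, 8.04, 7.46, 4.48 and 4.41 FPKM in Model mice (1.00 ± 0.22, adjusted p = 0.009204). Trem2, the lipid-sensing receptor of such cells, was 2.09, 2.24, 1.55, 1.95 and 3.51 FPKM and 3.93, 5.21, 3.92, 6.399 and 6.27 FPKM (0.92 ± 0.19, adjusted p = 0.00574). Msr1 (scavenger receptor A) was 2.31, 3.73, 2.08, 1.84 and 2.55 FPKM and 7.48, 5.299, 6.698, 4.57 and 5.42 FPKM (0.98 ± 0.17, adjusted p = 0.00246). For all 3 genes, every Model mouse was above every Control mouse, and the calls held without Control mice 17 and 50.

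Cd68, a lysosomal protein of phagocytes, was 5.81 to 12.5 FPKM in Control and 12.9 to 16.4 FPKM in Model mice (0.59 ± 0.19, adjusted p = 0.0443), without overlap, though it was not called after rescaling. Apoe (apolipoprotein E, which carries lipid out of macrophages) was 11.9, 15.8, 5.35, 10.1 and 25.7 and 37.9, 47.4, 37.7, 12.5 and 20.2 FPKM, and its difference of 1.13 ± 0.42, adjusted p = 0.0769 did not pass. Axl, a receptor for dying cells, was 17.9 to 26.6 and 19.1 to 24.7 FPKM (0.12 ± 0.12, adjusted p = 0.512).

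Arg1 had the largest difference of the 33 genes and also the most uneven Control values. It was 26.7, 0.233, 0.289, 0.119 and 22.7 FPKM in Control mice and 30.4, 46.3, 19.1, 39.4 and 50.1 FPKM in Model mice (3.14 ± 0.96, adjusted p = 0.0368). Control mice 17 and 50 fell within the Model range and the other 3 Control mice lay below 0.3 FPKM. The keratins split the Control mice in the same way, with Krt14, a keratin of basal squamous cells, at 61.02, 1.27, 0.474, 0.284 and 45.5 FPKM. Krt14 was 6.204, 22.2, 7.34, 19.1 and 22.5 FPKM in Model mice. Arginase is not restricted to macrophages, and a source of Arg1 in epithelium was not tested. Control mice 17 and 50 hold the high Control values of Arg1, so leaving them out could only raise the difference. The log2 difference was then 4.90 ± 0.29, adjusted p = 5.31e-05, which is not a separate test of Arg1. Starting from all mice, the call was lost in 8 of the 10 cases where 1 mouse was left out.

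**Figure D2:**
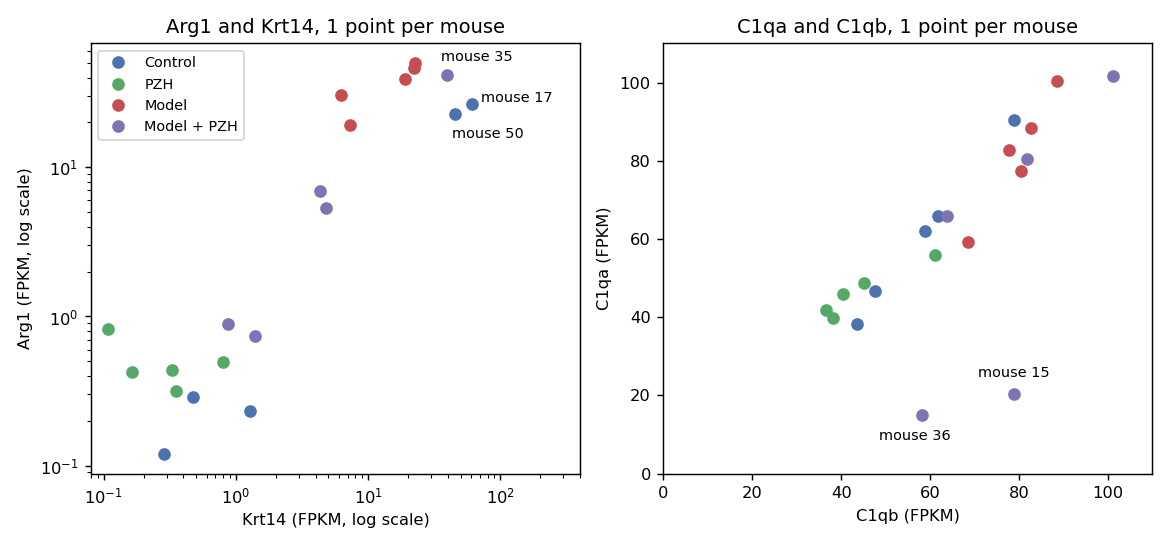
Left, Arg1 against Krt14 (FPKM, both axes on a log scale); right, C1qa against C1qb (FPKM); 1 point per mouse, colored by group. Control mice 17 and 50 and Model + PZH mouse 35 lie at high Krt14 and at 22.7 FPKM of Arg1 or more, and Model + PZH mice 15 and 36 lie far below the other mice in C1qa at like C1qb.

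Of the dendritic cell genes, 1 of 7 tested was called. Itgax was 1.07, 3.39, 2.25, 2.19 and 1.85 FPKM in Control and 4.52, 6.56, 8.29, 6.32 and 5.96 FPKM in Model mice, without overlap (1.24 ± 0.21, adjusted p = 0.00188). Zbtb46, a transcription factor of conventional dendritic cells that macrophages lack, was 0.506 to 1.09 and 0.506 to 1.297 FPKM (0.13 ± 0.15, adjusted p = 0.57). The ratio of Itgax to Zbtb46 had a median of 2.07 in Control and 5.99 in Model mice, and the groups overlapped through Control mouse 37. The cytokine receptor Flt3 (0.31 ± 0.16), the cDC1 factor Batf3 (0.19 ± 0.21), the monocyte-derived dendritic cell lectin Cd209a (-0.27 ± 0.16), Cst3 (-0.23 ± 0.18) and Irf8 (0.01 ± 0.14), a transcription factor of cDC1 cells, monocytes and B cells, did not pass. Csf1, the growth factor that Csf1r binds, was 5.63, 5, 8.39, 4.96 and 7.75 FPKM in Control and 7.33, 8.98, 11.2, 11.7 and 9.92 FPKM in Model mice (0.57 ± 0.18, adjusted p = 0.0375), with Control mouse 41 inside the Model range. Csf1 was not called without Control mice 17 and 50 or after rescaling.

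**Figure D3:**
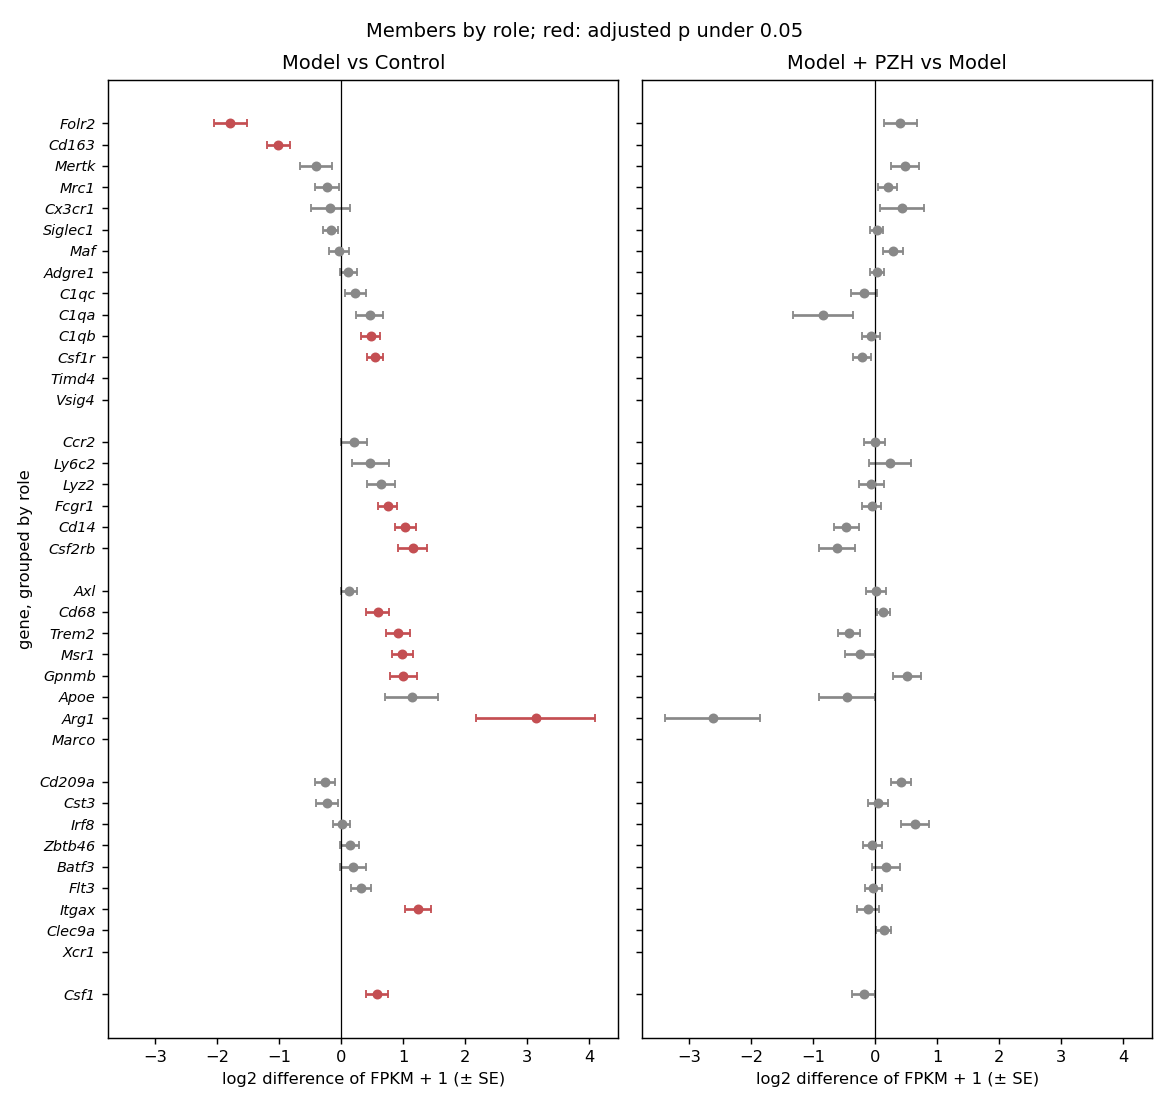
Log2 difference of FPKM + 1 with its SE (x axis) for each member, grouped by role (y axis), in Model against Control (left) and Model + PZH against Model mice (right); red marks an adjusted p under 0.05, and members too low for the test have no point. The 14 called members are all in the left panel, 12 to the right of 0 and 2, Folr2 and Cd163, to the left.

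Promoters are shown for 2 members that were lower and 2 that were higher in Model mice, to set genes of opposite direction side by side. The sequences are the 250 bases before the RefSeq start (GRCm38.p6), read 5′ to 3′ on the strand of the gene, taken at the start nearest to that of the most abundant transcript where there are several. Capitals mark AGGAAG or its reverse complement, the core of sites that PU.1 and other ETS factors bind. PU.1 (Spi1) is the main transcription factor of myeloid cells. Folr2 (chr7:101845332-101845581, minus strand) and Cd163 (chr6:124304401-124304650, plus strand) were lower, and Fcgr1 (chr3:96293970-96294219, minus strand) and Gpnmb (chr6:49036268-49036517, plus strand) were higher.
Folr2: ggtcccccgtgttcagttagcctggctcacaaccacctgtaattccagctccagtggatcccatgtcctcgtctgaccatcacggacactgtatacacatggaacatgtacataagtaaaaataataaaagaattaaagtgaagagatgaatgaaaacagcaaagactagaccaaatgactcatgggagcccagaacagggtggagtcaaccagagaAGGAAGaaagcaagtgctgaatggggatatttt
Cd163: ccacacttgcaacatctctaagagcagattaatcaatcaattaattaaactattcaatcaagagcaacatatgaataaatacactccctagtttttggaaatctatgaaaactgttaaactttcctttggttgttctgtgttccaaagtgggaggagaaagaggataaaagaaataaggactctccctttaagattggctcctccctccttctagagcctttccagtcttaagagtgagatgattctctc
Fcgr1: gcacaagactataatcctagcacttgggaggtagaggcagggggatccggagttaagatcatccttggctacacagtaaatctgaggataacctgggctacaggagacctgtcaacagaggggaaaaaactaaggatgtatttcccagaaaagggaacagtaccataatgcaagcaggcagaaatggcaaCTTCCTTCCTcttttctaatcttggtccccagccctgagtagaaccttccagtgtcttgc
Gpnmb: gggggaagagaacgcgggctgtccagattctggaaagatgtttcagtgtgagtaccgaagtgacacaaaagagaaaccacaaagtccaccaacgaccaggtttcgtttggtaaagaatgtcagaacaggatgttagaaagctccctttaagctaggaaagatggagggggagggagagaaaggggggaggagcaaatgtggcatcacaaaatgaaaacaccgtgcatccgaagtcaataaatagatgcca
Folr2 holds 1 match and Fcgr1 2 that overlap, and Cd163 and Gpnmb hold none in this window. Of the 38 members, 29 had a promoter in the table and 12 of these (41.4%) hold a match on either strand, beside 29.5% of 32851 promoters of the same length. A match is a stretch of letters, and binding was not measured.

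Related genes were counted in the same way. Of 9 tested partners in growth factor and receptor signaling, 4 were higher, among them Plcg2 (1.19 ± 0.21) and Tyrobp (1.18 ± 0.19), the adaptor through which TREM2 signals. Of 16 chemokines and receptors, 8 were higher and none lower, among them Ccl3 (1.64 ± 0.26) and Ccl4 (1.43 ± 0.17), which draw monocytes. Of 25 other macrophage genes, 9 were higher, led by Spp1 (osteopontin, 4.39 ± 0.34), and 6 were lower, among them Lgals3 (galectin 3, -1.22 ± 0.24) and Cd36 (a fatty acid receptor, -1.05 ± 0.24). These 2 are also made by colon epithelium and Spp1 by other cells. Of 11 myeloid transcription factors, 6 were higher, led by Tcf4 (1.16 ± 0.15), and 1, Klf4 (-1.32 ± 0.20), was lower. Which cells of the tissue these changes come from was not tested. Of 13 tested other dendritic cell genes, 5 were higher, led by Fscn1 (fascin, 1.43 ± 0.12), which mature dendritic cells express. All 5 pan-leukocyte genes had a positive difference and 3 were called, with a median log2 difference of 1.17.

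Whether PZH moved these genes in AOM/DSS mice was asked by comparing Model + PZH with Model mice. No member was called (0 of 33 tested), beside 0.00629% of all 15888 genes. At an unadjusted p under 0.05, 3 members were higher and 3 lower, beside 3.51% and 8.21% of all genes. The median log2 difference was -0.01 for the members and -0.04 for all genes. This comparison shares the Model mice with that of Model and Control mice.

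The 3 lower ones were Arg1, Cd14 and Trem2. Arg1 was 0.738, 0.887, 6.99, 41.4 and 5.33 FPKM in Model + PZH mice, against 19.1 to 50.1 FPKM in Model mice (-2.62 ± 0.76, unadjusted p = 0.00585, adjusted p = 0.356). Mouse 35 lay within the Model range and the other 4 below it, and Krt14 was 1.39, 0.8703, 4.29, 39.2 and 4.83 FPKM in the same mice. Cd14 was 46.6, 40.8, 48.6, 79.9 and 47.02 FPKM against 55.5 to 90.8 FPKM (-0.47 ± 0.20, unadjusted p = 0.04197, adjusted p = 0.409), again with mouse 35 inside the Model range and the other 4 below it. Trem2 was 3.98, 3.16, 2.77, 4.96 and 3.08 FPKM against 3.92 to 6.399 FPKM (-0.42 ± 0.18, unadjusted p = 0.0401, adjusted p = 0.407), with mice 2 and 35 inside the Model range. Of the 6 tested neutrophil genes, 5 were also lower at an unadjusted p under 0.05, none by adjusted p.

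The 3 higher ones were Gpnmb, Irf8 and Cd209a. Gpnmb was 8.63, 9.65, 10.2, 5.65 and 7.27 FPKM in Model + PZH mice, where 3 mice exceeded the highest Model mouse (0.51 ± 0.22, unadjusted p = 0.0418, adjusted p = 0.409). It was thus at its highest mean, 8.27 ± 1.84 FPKM (SD of 5 mice), in the group where Trem2, which rose with it in Model mice, was at 3.59 ± 0.886 FPKM against 5.15 ± 1.21 FPKM in Model mice. Irf8 was 54.3, 66.05, 55.8, 27.02 and 35.4 FPKM against 24.6, 34.5, 31.6, 26.6 and 28.1 FPKM in Model mice (0.64 ± 0.23, unadjusted p = 0.0174, adjusted p = 0.362), with mouse 35 inside the Model range. Cd209a was 1.26, 0.945, 1.103, 0.756 and 0.469 FPKM against 0.0993, 0.787, 0.263, 0.4201 and 0.584 FPKM (0.42 ± 0.16, unadjusted p = 0.02403, adjusted p = 0.375), with overlap.

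In 2 members a call arose only when mouse 35 was left out, and no other alternative called a member. Mouse 35 lay inside the Model range in Arg1, Irf8, Csf2rb and Cd14. Leaving mouse 35 out therefore widens these differences and is no separate test of them. Without it, Arg1 was lower (-3.33 ± 0.50, adjusted p = 0.00833) and Irf8 higher (0.82 ± 0.18, adjusted p = 0.0321) in Model + PZH than in Model mice, Csf2rb (-0.86 ± 0.22, adjusted p = 0.0553) and Cd14 (-0.62 ± 0.16, adjusted p = 0.0567) were just short of the threshold, and all genes called rose from 1 to 119 higher and 689 lower. With all 5 mice, Csf2rb was 3.804, 4.09, 3.56, 8.94 and 2.16 FPKM, of which only mouse 35 lay within the Model range.

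The resident genes that were low in Model mice were low in Model + PZH mice as well. Folr2 was 2.62, 1.41, 1.44, 0.744 and 2.3 FPKM in Model + PZH mice, inside the Model range of 0.439 to 2.64 FPKM (0.41 ± 0.27, adjusted p = 0.569). Cd163 was 0.478, 0.336, 0.305, 0.224 and 0.312 FPKM and too low for the test against Model mice, where 4 of 5 Model + PZH mice lay above the highest Model value of 0.250 FPKM. C1qa was 65.8, 80.5, 20.5, 102 and 15.1 FPKM, with mice 15 and 36 far below the other 3, although C1qb was 63.8, 81.8, 78.9, 101 and 58.3 FPKM in the same mice. The ratio of C1qa to C1qb had medians of 1.06 in both Control and Model mice and 1.08 in PZH mice, and its lowest value in those groups was 0.863, against 0.259 at the lowest in Model + PZH mice. The 3 C1q genes lie side by side on chromosome 4 and their products join in 1 protein, and whether the low C1qa of those mice comes from the assignment of fragments to transcripts was not tested.

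**Figure D4:**
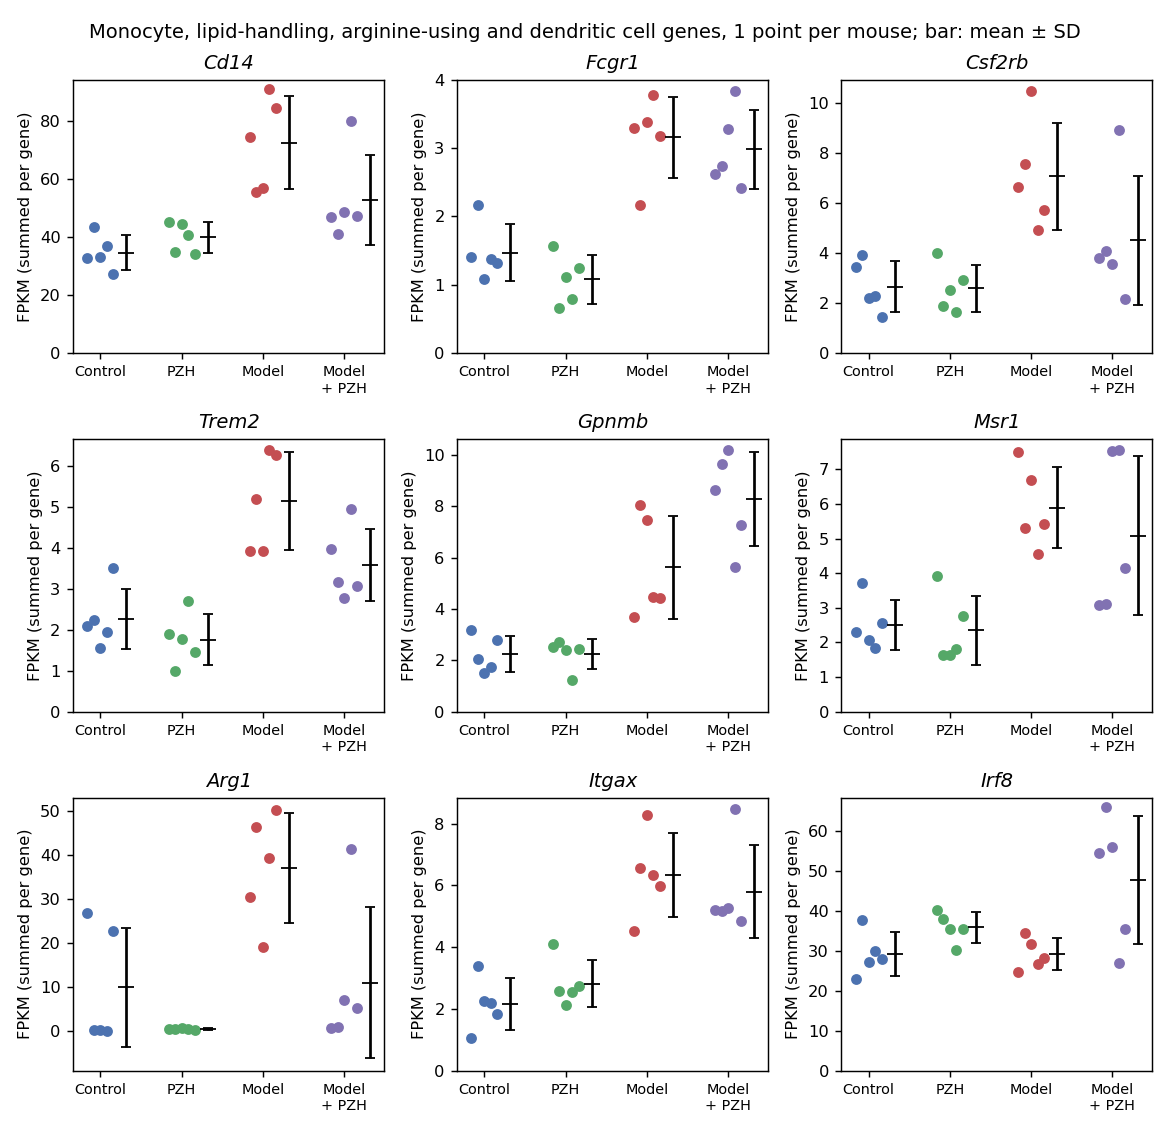
FPKM of 9 monocyte, lipid-handling, arginine-using and dendritic cell genes (y axis of each panel) in each mouse of the 4 groups (x axis), with the mean and SD of 5 mice as bars. Model + PZH mouse 35 is the highest of its group in Cd14, Csf2rb, Trem2, Arg1 and Itgax, and Gpnmb and Irf8 have their highest mean in Model + PZH mice.

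In mice without AOM/DSS, no member was called for PZH against Control (0 of 32 tested), beside 0.00645% of all genes. At an unadjusted p under 0.05, Irf8 was higher and C1qc lower, beside 4.34% and 4.5% of all 15506 genes. Irf8 was 22.8, 37.7, 27.2, 29.9 and 28.03 FPKM in Control and 40.3, 38.01, 35.3, 30.1 and 35.4 FPKM in PZH mice (0.30 ± 0.13, unadjusted p = 0.0424, adjusted p = 0.554), and without Control mice 17 and 50 the difference was 0.18 ± 0.13, unadjusted p = 0.209. C1qc was 40.96, 60.2, 34.2, 35.5 and 48.9 FPKM in Control and 48.4, 28.9, 26.1, 29.9 and 25.2 FPKM in PZH mice (-0.47 ± 0.20, unadjusted p = 0.0406, adjusted p = 0.547), with PZH mouse 8 inside the Control range, and without Control mice 17 and 50 the difference was -0.43 ± 0.25, unadjusted p = 0.123. Of 12 resident macrophage genes tested, 11 had a negative difference, with a median of -0.28, beside 7554 of all 15506 genes, with a median of 0.01. The difference was also negative in 5 of 6 tested members of lipid handling, scavenging and arginine use and in 20 of 24 other macrophage genes. It was positive in 5 of 7 dendritic cell members. All 6 smooth muscle genes had a negative difference, with a median of -0.80, 5 of them at an unadjusted p under 0.05. Without Control mice 17 and 50, 9 of the 12 resident genes had a negative difference, with a median of -0.16, and the smooth muscle median was -0.55. In that fit, only 3 of 7 dendritic cell members had a positive difference, with a median of -0.04. Negative differences were left in 4 of 6 members of lipid handling, scavenging and arginine use and in 19 of 24 other macrophage genes. Cd163 and Folr2 were 1.66, 0.783, 0.8101, 0.557 and 0.789 and 4.68, 3.997, 5.87, 3.37 and 1.71 FPKM in PZH mice, and both overlapped with Control mice.

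Model + PZH mice still differed from Control mice in 5 members, 3 higher and 2 lower, of 34 tested, beside 1.55% and 0.871% of all 15616 genes. After rescaling, all genes split into 233 higher and 217 lower in place of 242 and 136. Gpnmb (1.52 ± 0.20, adjusted p = 0.0103), Itgax (1.13 ± 0.21, adjusted p = 0.02796) and Fcgr1 (0.69 ± 0.15, adjusted p = 0.0446) were higher, and Folr2 (-1.38 ± 0.24, adjusted p = 0.0196) and Cd163 (-0.80 ± 0.18, adjusted p = 0.0498) lower. For none of the 5 did the groups overlap, and the share of all genes without overlap was not counted for this comparison. The call of Gpnmb held in every alternative tried. Without Control mice 17 and 50, all genes called fell from 242 higher and 136 lower to 22 and 7. In that fit, Folr2 (-1.17 ± 0.25, adjusted p = 0.0908), Itgax (0.90 ± 0.21, adjusted p = 0.1205) and Fcgr1 (0.66 ± 0.20, adjusted p = 0.182) kept their direction and were not called, and Cd163 no longer met the level filter. The calls of these 4 were also lost when single mice were left out. Cd163 was lost in all 5 cases that tested it, Fcgr1 in 9 of 10 and Itgax in 6 of 10. Folr2 was lost in 1 of 10, without Model + PZH mouse 15. Cd163 again passed the filter through Control mice only, so it could only come out lower. Cd68 did not overlap either but missed the threshold (0.71 ± 0.19, adjusted p = 0.0742), and Arg1 had a difference of 0.52 ± 1.17, adjusted p = 0.841. The Arg1 value was 2.28 ± 0.92, adjusted p = 0.2904 without Control mice 17 and 50 and -0.19 ± 1.11, adjusted p = 0.948 without Model + PZH mouse 35. Vsig4 was 0.0676, 0.0801, 0, 0 and 0 FPKM in Model + PZH mice, below every Control mouse and too low for the test.

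Against PZH mice, Model + PZH mice were higher in 5 of 34 members and lower in none, beside 1.74% and 0.678% of all 15636 genes. They were Gpnmb (1.51 ± 0.19, adjusted p = 0.01003), Cd68 (0.98 ± 0.13, adjusted p = 0.0126), Fcgr1 (0.95 ± 0.15, adjusted p = 0.0206), Itgax (0.83 ± 0.18, adjusted p = 0.0422) and C1qb (0.78 ± 0.18, adjusted p = 0.0487). Itgax was 4.101, 2.57, 2.12, 2.56 and 2.74 FPKM in PZH and 5.22, 5.18, 5.25, 8.46 and 4.86 FPKM in Model + PZH mice, without overlap. Gpnmb was 2.504, 2.704, 2.39, 1.24 and 2.45 FPKM in PZH mice, all below the lowest Model + PZH mouse at 5.65 FPKM. Gpnmb and Cd68 were called in every alternative. Itgax and C1qb were each lost in 8 of the 10 cases where 1 mouse was left out, and Fcgr1 in 2. Without Model + PZH mouse 35, Itgax and C1qb were not called, while all genes called were 189 higher and 67 lower in place of 272 and 106. C1qb was also lost after rescaling. Cd163 did not overlap between these groups and missed the threshold (-0.51 ± 0.14, adjusted p = 0.0793), and it passed the level filter through PZH mice only.

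Whether the effect of AOM/DSS differed with PZH was tested as an interaction over all 20 mice. No member of 34 was called, beside 0.0118% of all 16936 genes. At an unadjusted p under 0.05, 4 members were positive and 1 negative, beside 3.41% and 6.92% of all genes, where positive means that AOM/DSS moved the gene further up, or less far down, in mice that received PZH. The positive ones were Folr2 (0.94 ± 0.39, unadjusted p = 0.02603, adjusted p = 0.424), Cd163 (0.51 ± 0.23, unadjusted p = 0.0421, adjusted p = 0.467), Mrc1 (0.54 ± 0.25, unadjusted p = 0.04796, adjusted p = 0.482) and Cd209a (0.56 ± 0.21, unadjusted p = 0.0136, adjusted p = 0.386), and the negative one was Cd14 (-0.67 ± 0.25, unadjusted p = 0.0145, adjusted p = 0.388). Among Control mice, Cd163, Folr2 and Mrc1 were highest in mice 17 and 50. Without these mice, unadjusted p was above 0.05 for these 3 genes and Cd14 (0.73 ± 0.41, unadjusted p = 0.0963 for Folr2), and the 3 members under it were Cd209a (0.70 ± 0.22, unadjusted p = 0.00502), Mertk (0.68 ± 0.29, unadjusted p = 0.0319) and Arg1 (-2.92 ± 0.93, unadjusted p = 0.00625, in place of -1.16 ± 1.29 with all mice), none of them by adjusted p. Mrc1 was 11.5, 6.72, 5.698, 7.14 and 9.94, 8.69, 5.29, 6.48, 5.404 and 5.16, 5.36, 8.87, 6.98, 6.17 and 6.28 and 6.25, 7.45, 9.96, 8.68 and 7.07 FPKM in Control, PZH, Model and Model + PZH mice, and all groups overlapped. Without Model + PZH mouse 35, Cd14 was called (-0.83 ± 0.21, adjusted p = 0.0409). Mouse 35 has the highest Cd14 of its group, and Control mice 17 and 50 have the highest Arg1 of theirs. The fits without them are thus no separate tests of these genes.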

How the data were processed

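RNA of colon tissue was measured in 20 mice of 4 groups, as given by the labels. The FPKM values deposited by the authors were made per transcript with HISAT2 and StringTie on mm10, after read filtering, per the study's methods, and the submitters' processing notes also name limma. The labels give rRNA depletion, and the study's methods add poly(A) selection. FPKM was summed per gene over the 96032 Ensembl transcripts found in GENCODE M21 (GRCm38). Another 150 Ensembl transcripts and 22252 assembled ones entered no gene, and 11 members had annotated transcripts without a value. Assembled transcripts held 12.1 to 14.9% of FPKM, and fragments assigned to them are missing from genes.

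Depth was read from the smallest step of FPKM times length. Only 41.5 to 46.0% of low values fell on whole steps, so counts were not recovered and count tests were not used. The highest Pearson r between mice was 0.888 over transcripts, so no 2 libraries held the same values. Genes that reached 0.5 FPKM in 5 or more of the 10 mice compared (of 20 for the interaction) were fitted as log2(FPKM + 1) with limma 3.58.1 (R 4.3.3) with an intensity trend, 2-sided, without covariates, and adjusted by Benjamini-Hochberg over all genes. The method was tested on simulated data. Labels give each mouse its own number, and no batch.

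Every member was accounted for. Values per mouse were given for up to 4 members per role with the largest called change in Model against Control mice and a mean of at least 2 FPKM in the higher group, for members called or without overlap between PZH-treated and untreated mice, for members with an unadjusted interaction p under 0.05, and for 3 paralogs. Others with values per mouse (Apoe, C1qa, Cx3cr1, Vsig4, Irf8, C1qc) were chosen after their values were seen. Of related lists, the 1 to 3 genes with the largest called changes were named. The members and lists were chosen with earlier results of these data known. The alternatives were another pseudocount, no filter, a stricter filter, rescaling by the median of ratios, all mice in 1 model, sample quality weights, and leaving out each mouse. A fit without Control mice 17 and 50 was added after seeing the data.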

Additional observations from a re-analysis of the deposited data

Results flagged for a closer look

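In each group of 5 mice, the highest or lowest value of a member was taken to stand apart when its gap to the next, as a share of the range, exceeded Dixon's critical value of 0.71. Groups in which no mouse reached 0.5 FPKM were not flagged. Of 152 groups examined, these low ones included, 16 had such a mouse, 14 of them at the high end. Chance gives about 1 in 20 for normally distributed values, and FPKM was not put on a log scale here. PZH mouse 8 and Model + PZH mouse 35 account for 5 each, Control mice 17 and 50 for 2 each, and PZH mouse 46 and Model mouse 30 for 1 each.

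PZH mouse 8 was the highest of its group in Cd163 (1.66 FPKM, others 0.558 to 0.810), Timd4 (0.629, others 0 to 0.163), C1qc (48.4, others 25.2 to 29.9), Maf (6.36, others 3.81 to 4.51) and Ccr2 (4.29, others 1.24 to 1.75).

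Model + PZH mouse 35 was the highest of its group in Cd14 (79.9 FPKM, others 40.8 to 48.6), Csf2rb (8.94, others 2.16 to 4.09), Arg1 (41.4, others 0.738 to 6.99), Itgax (8.47, others 4.86 to 5.25) and Csf1 (13.2, others 6.91 to 8.10). Its keratins were high too, with Krt14 at 39.2 FPKM.

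Control mouse 17 was the lowest of its group in Mertk (2.72 FPKM, others 6.06 to 7.08) and the highest in Siglec1 (1.31, others 0.554 to 0.763). Control mouse 50 was the highest in Vsig4 (1.76 FPKM, others 0.216 to 0.587) and Axl (26.6, others 17.9 to 19.9). Model mouse 30 was the highest in Folr2 (2.64 FPKM, others 0.439 to 0.924), and PZH mouse 46 the lowest in Gpnmb (1.24, others 2.39 to 2.70).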

How the results depend on the processing

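In Model against Control mice, 10 of the 14 called members kept their call in every alternative that tested them. The other 4 lost it when single mice were left out, Arg1 in 8 of 10 cases (adjusted p up to 0.0832), C1qb in 9 (0.102), Cd68 in 8 (0.0966) and Csf1 in 7 (0.0923), and without a filter. Leaving out 1 mouse gave 8 to 12 members higher and 1 to 2 lower, beside 1709 to 2494 of all genes higher and 807 to 1080 lower. The stricter filter left 0 lower, since Folr2 and Cd163 were below it, and the fit without Control mice 17 and 50 left 1 lower, since Cd163 no longer met the filter, which also set the count of 1 without any single Control mouse. No difference of a called member changed sign in any alternative. Members of Model + PZH against Model mice were called in 0 cases in each alternative but leaving out mouse 35, so that the leave-out counts ran from 0 to 1 higher and 0 to 1 lower, and those of the interaction from 0 to 1.

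Against Control mice, Model + PZH mice were higher in 1 member and lower in 0 without a filter, higher in 6 with all 20 mice in 1 model, lower in 1 with the stricter filter and in 1 with sample quality weights, and higher in 1 and lower in 0 without Control mice 17 and 50, in place of 3 and 2. Leaving out 1 mouse gave 1 to 3 higher and 0 to 1 lower. Against PZH mice they were higher in 2 members without a filter and in 9 with all 20 mice in 1 model, in place of 5, and leaving out 1 mouse gave 2 to 6. The count of all genes called higher moved as well. Against Control mice it went from 242 to 68 without a filter, 923 with all 20 mice and 22 without Control mice 17 and 50. Against PZH mice it went from 272 to 63 without a filter and 690 with all 20 mice. Leaving out a mouse lowers the power of a fit. The cause of the other changes was not tested. PZH against Control gave 0 members in every alternative.

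With 5 mice per group, and 0.5 FPKM as the floor, differences in Timd4, Vsig4, Marco, Xcr1 and Clec9a could not be tested in Model and Control mice. No paired analysis was possible because the labels give each mouse a number that occurs in 1 group only.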

Other observations

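Lyz1, the lysozyme of Paneth cells, was 37.1, 22.1, 599, 1376 and 47.5 FPKM in Model + PZH mice 2, 13, 15, 35 and 36, against 681 to 2128 FPKM in Model mice (log2 difference -3.11, unadjusted p = 0.0141, adjusted p = 0.356). Spp1 (osteopontin) had a log2 difference of -2.78 in the same comparison (unadjusted p = 0.00331, adjusted p = 0.356) and of -2.91 in the interaction (unadjusted p = 0.00176, adjusted p = 0.351).

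Values of 2 transcription factors dropped close to 0 in single mice. Cebpa was 0.921 FPKM in Model mouse 44 against 18.6 to 22.1 FPKM in the other Model mice, and Irf5 was 0.147 and 0 FPKM in Model + PZH mice 13 and 36 against 5.55 to 7.15 FPKM in the other 3. Whether these come from the assignment of fragments to transcripts was not tested.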
